A study of Mus musculus with 4 samples.

Results

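The claudin family was described in 2 mouse keratinocyte lines, MK1 and MK2, by its 9 members Cldn1, Cldn3, Cldn4, Cldn6, Cldn7, Cldn8, Cldn9, Cldn12 and Cldn23. The members were the rows of the deposited count table with these gene names, and all 9 were found among 23420 gene rows. Total RNA of each line was sequenced from 2 biological replicate cultures, which gives 4 libraries in 2 groups. The labels describe both groups as keratinocytes of a cell line and name no genotype, strain, age, passage or treatment, and each line stands for itself alone. The series belongs to work on the transcription factor p63 in mouse and human epidermis, and the comparison its design allows is MK2 against MK1.

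Claudins are small membrane proteins with 4 transmembrane passes that polymerise into the strands of tight junctions, the seals between neighbouring epithelial cells. Which claudins a cell makes sets how tight the seal is and which ions pass through it. Their cytoplasmic ends bind scaffold proteins, among them ZO-1, encoded by Tjp1, and ZO-3, encoded by Tjp3. In the epidermis functional tight junctions lie in the granular layer, while Cldn1 is also made in the layers beneath it.

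The promoter windows of the members on which the comparison turned are shown first, because their transcripts differed between the lines (Cldn1, Cldn4 and Cldn6) or did not pass the test (Cldn12). Each window runs from 250 bases before the RefSeq start site to 10 bases from it (GRCm38.p6, the assembly of mm10), 5′ to 3′ on the gene's strand, with motif matches on either strand in capitals. For Cldn12, the window of the start site that ends the deposited gene row is shown. The windows lie at chr16:26371830-26372089 (minus strand), chr5:134946925-134947184 (minus strand), chr17:23679115-23679374 (plus strand) and chr5:5514967-5515226 (minus strand).
Cldn1: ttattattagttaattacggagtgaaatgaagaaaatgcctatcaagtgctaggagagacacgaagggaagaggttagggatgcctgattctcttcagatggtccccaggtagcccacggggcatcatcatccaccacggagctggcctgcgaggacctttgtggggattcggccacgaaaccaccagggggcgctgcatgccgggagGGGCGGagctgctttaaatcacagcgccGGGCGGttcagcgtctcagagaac
Cldn4: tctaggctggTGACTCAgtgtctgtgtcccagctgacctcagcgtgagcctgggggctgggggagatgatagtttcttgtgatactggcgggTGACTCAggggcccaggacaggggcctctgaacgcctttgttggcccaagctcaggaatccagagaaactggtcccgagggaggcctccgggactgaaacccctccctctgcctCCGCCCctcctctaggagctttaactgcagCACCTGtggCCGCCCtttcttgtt
Cldn6: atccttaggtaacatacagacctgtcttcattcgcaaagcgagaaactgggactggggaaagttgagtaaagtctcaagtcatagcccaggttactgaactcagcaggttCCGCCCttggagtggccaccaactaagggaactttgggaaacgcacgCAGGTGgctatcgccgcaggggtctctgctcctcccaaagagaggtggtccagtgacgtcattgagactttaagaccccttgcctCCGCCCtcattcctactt
Cldn12: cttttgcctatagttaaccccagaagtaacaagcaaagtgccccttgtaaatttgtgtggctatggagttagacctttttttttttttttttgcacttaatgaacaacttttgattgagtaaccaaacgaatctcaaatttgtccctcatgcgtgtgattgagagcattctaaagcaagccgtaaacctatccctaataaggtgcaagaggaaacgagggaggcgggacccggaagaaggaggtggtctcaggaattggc

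The motifs searched, on both strands, were the TATA box TATAAA, the GC box GGGCGG, the E2 box CAGGTG that Snail-type and Zeb repressors recognise, the Grainyhead motif AACCNGTT, the AP-1 motif TGANTCA and the p63 half-site. No matches overlapped each other in the windows shown. The Cldn1 window held 2 GC boxes, at -42 and -14 from the start site (the base before the start is -1). In the Cldn4 window there were 2 AP-1 motifs at -240 and -158, 2 GC boxes at -44 and -5, and 1 E2 box at -14. The Cldn6 window held 2 GC boxes at -140 and -8 and 1 E2 box at -93, and none of these letters occurred in the Cldn12 window shown. RefSeq gives Cldn12 a pair of further start sites, whose overlapping windows held the same GC box, at -13 from one start and -73 from the other, with GC contents of 58.5% and 65.8%. Among 32851 promoter windows of this length, 33.4% held a GC box, 17.8% an E2 box, 7.03% an AP-1 motif, 12.7% a TATA box, 1.86% a Grainyhead motif and 7.35% a p63 half-site. The GC content was 55.4% for Cldn1, 60.8% for Cldn4, 52.7% for Cldn6 and 42.3% for Cldn12, against a median of 52.3% over all windows. Of the 9 members, 6 had a window in the RefSeq table, among them Cldn3 and Cldn7, which are not printed.

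Libraries held 25237391 to 30261111 counts. Levels within a gene are given as CPM, read counts per 1e6 counts of the scaled library, and levels between genes as TPM, which also divide by gene length. Where no read was counted, the limit set by 3 counts was 0.0987 to 0.119 CPM depending on the library, and such limits cover counting error only. Fold changes are MK2 minus MK1 on the log2 scale and adjusted p-values are from edgeR's quasi-likelihood test, adjusted by Benjamini-Hochberg over 12479 tested genes. The p-values measure the spread between cultures and do not extend to other keratinocyte lines.

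Cldn4, a sealing claudin of granular keratinocytes and of many simple epithelia, was the most abundant member in MK1. Its single exon lies on chromosome 5, 134945124 to 134946934 (mm10, minus strand). Replicates 1 and 2 of MK1 had 826 and 588 CPM of Cldn4, and those of MK2 had 58.9 and 185.9 CPM. Both MK1 cultures lay above both MK2 cultures, and MK2 replicate 1 was the lowest library. The means of 707 ± 168 CPM for MK1 and 122 ± 89.8 CPM for MK2 (SD over n = 2 cultures per line here and below) differed 5.78-fold. Cldn4 fell by 2.53 on the log2 scale (SE 0.492, 95% interval -3.70 to -1.36, adjusted p = 0.00518 in edgeR's quasi-likelihood test). The size of the fall depended on the MK2 culture: it was -1.92 without MK2 replicate 1 and -3.58 without MK2 replicate 2, and the call held in both cases.

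Cldn1, the barrier claudin without which newborn mice die of water loss through the skin, was also lower in MK2. The gene lies on chromosome 16, 26356646 to 26371839 (minus strand, 4 exons in the deposited row). Cldn1 levels were 466 and 343 CPM in MK1 and 118 and 193 CPM in MK2. The lines did not overlap, and MK2 replicate 1 was again the lowest library. From a mean of 404 ± 86.9 CPM in MK1 the level fell to 156 ± 52.7 CPM in MK2, a 2.60-fold difference (log2 change -1.38, SE 0.249, 95% interval -1.97 to -0.783, adjusted p = 0.00386 in edgeR's quasi-likelihood test).

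Cldn6, a claudin best known from embryonic epithelia, was present in MK1 and had no counts in MK2. It lies on chromosome 17, 23679365 to 23682446 (plus strand, 3 exons). The MK1 cultures held 3627 and 3430 counts of Cldn6, or 119 and 128 CPM, and both MK2 cultures held 0. The MK1 cultures were close to each other (124 ± 5.96 CPM). Set against 3 counts over both MK2 libraries (0.0560 CPM), Cldn6 was at least 2204-fold lower in MK2 (adjusted p = 6.05e-06 in edgeR's quasi-likelihood test). Cldn6 passed the low-count filter through MK1 alone, so it could only be found lower in MK2.

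Cldn12, an unusual claudin without the C-terminal motif that binds PDZ domains of scaffold proteins, was at similar levels in the lines. It lies on chromosome 5, 5505015 to 5514976 (minus strand). Cldn12 stood at 89.5 and 90.5 CPM in MK1 and at 68.3 and 96.2 CPM in MK2. The MK2 cultures enclosed the MK1 cultures, so the lines overlapped. The log2 change was -0.13 (95% interval -0.523 to 0.266, adjusted p = 0.538 in edgeR's quasi-likelihood test). It was 0.10 without MK2 replicate 1, and -0.40 and past the threshold without MK2 replicate 2 (adjusted p = 0.0271).

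Cldn23, a single-exon claudin on chromosome 8 (35824709 to 35826559, minus strand), was expressed at a low level. The MK1 cultures had 1.94 and 1.56 CPM of Cldn23 and the MK2 cultures 0.278 and 1.52 CPM. MK2 replicate 1, with 7 counts, stood apart from the other libraries, which held 42 to 59. Cldn23 did not pass the test (log2 change -0.94, 95% interval -2.39 to 0.507, adjusted p = 0.228 in edgeR's quasi-likelihood test). Without MK2 replicate 2 it passed as lower, at -2.64 (adjusted p = 0.00293).

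Cldn7, a basolateral claudin that binds the adhesion protein EpCAM, was nearly absent. It lies on chromosome 11, 69964779 to 69967886 (plus strand). The MK1 cultures held 1 and 0 counts of Cldn7 and the MK2 cultures 9 and 20. The level in MK2 was 0.357 and 0.705 CPM, above that of 3 counts, and summed over cultures it was 31.0-fold that in MK1 (95% counting interval 5.14 to 1270). Cldn7 narrowly failed the low-count filter, which asked for 0.362 CPM without scaling in 2 libraries and met 0.357 in MK2 replicate 1. With no low-count filter it was called higher in MK2 (log2 change 4.63, adjusted p = 0.00120 in edgeR's quasi-likelihood test), and DESeq2 also called it (adjusted p = 0.0214).

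The other 3 members were at or below the limit of detection in both lines. Cldn9, a claudin of the inner ear on chromosome 17, had 0 and 2 counts in MK1 and 1 and 0 in MK2. Cldn3, a sealing claudin of simple epithelia on chromosome 5, and Cldn8, a claudin of the distal nephron on chromosome 16, had 0 counts in all 4 libraries. Of the single Cldn3 exon, 44 bases overlap an exon of the antisense gene Wbscr25, which itself had at most 2 counts in a library, and no other member shared exon bases with another row of the table. No fold is given for these genes.

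**Figure D1:**
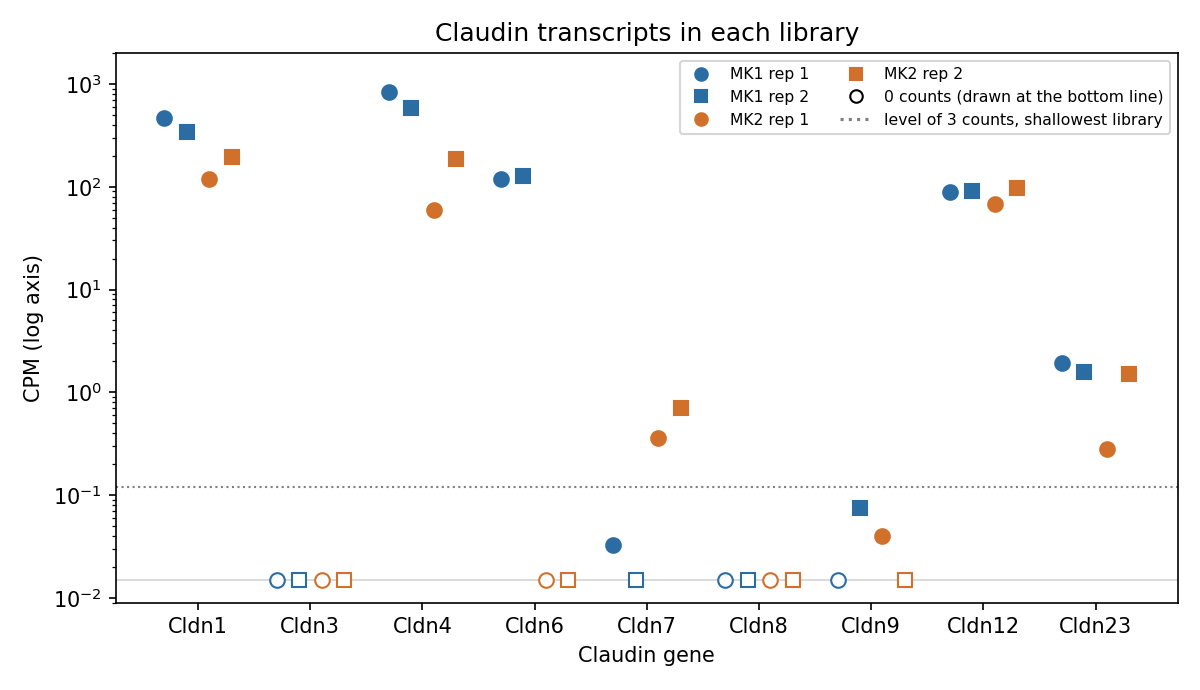
CPM (log axis) of the 9 claudin genes in each of the 4 libraries, with blue for MK1, orange for MK2, circles for replicate 1 and squares for replicate 2. Open symbols on the bottom line are libraries with 0 counts, and the dotted line is the level of 3 counts in the shallowest library (0.119 CPM). Cldn1, Cldn4 and Cldn6 are higher in both MK1 cultures, Cldn12 overlaps between the lines, and Cldn7 lies above the dotted line in MK2 alone.

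Of the 9 members, 5 had enough counts to be tested, 3 fell (Cldn1, Cldn4 and Cldn6), 0 rose and 2 did not pass. Cldn7, which narrowly failed the filter, is outside these counts. It was higher in both MK2 cultures (9 and 20 counts) than in the MK1 cultures (1 and 0). Over all tested genes, 54.6% were called, 28.6% lower and 25.9% higher in MK2. The cultures of the lines did not overlap for 4 of the 5 tested members, with MK1 above MK2 in each (Cldn1, Cldn4, Cldn6 and Cldn23), beside 80.5% of all tested genes, 40.9% with MK1 above and 39.5% with MK2 above. For Cldn23 the nearest cultures were almost level, at 1.56 CPM (42 counts) in MK1 replicate 2 and 1.52 CPM (43 counts) in MK2 replicate 2. Cldn6 was tested through MK1 alone, so its direction was fixed. The median log2 change of the 5 tested members was -1.38, beside -0.01 over all tested genes. Beyond 2-fold (glmTreat), Cldn4 and Cldn6 were called lower (adjusted p = 0.0331 and 7.49e-06), beside 10.1% of all tested genes, and Cldn1 was not (adjusted p = 0.164). Higher beyond 2-fold were 0 members and 3.25% of all tested genes. That call for Cldn4 was lost without MK1 replicate 1 (adjusted p = 0.216), without MK1 replicate 2 (adjusted p = 0.0924) and with the replicate number as a block (adjusted p = 0.0529), and Cldn1 was called beyond 2-fold without MK2 replicate 2 (adjusted p = 0.00403) and with crossed numbers as a block (adjusted p = 0.00393). Cldn23 was called lower beyond 2-fold without MK2 replicate 2 (adjusted p = 0.0240).

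Ordered per length, the members were led in MK1 by Cldn4, with 966 and 672 TPM, followed by Cldn1 (304 and 219 TPM), Cldn6 (168 and 176 TPM) and Cldn12 (46.5 and 45.9 TPM). No 2 neighbours in that order overlapped between the MK1 cultures. Among all gene rows, Cldn4 ranked 155 by mean TPM in MK1, Cldn1 546 and Cldn6 945. In MK2 the order of the members at the top was not settled. Cldn4 had 65.7 and 203 TPM and Cldn1 73.7 and 118 TPM, so that Cldn1 was ahead in MK2 replicate 1 and Cldn4 in MK2 replicate 2. Cldn12 followed with 33.8 and 46.8 TPM, below both genes in each culture. Cldn4 ranked 1204 and Cldn1 1749 in MK2. The row named Cldn25, which is not a member, had 95.9 and 117.5 TPM in MK1 and 87.2 and 84.9 TPM in MK2. It lay above Cldn12 in every library, and above Cldn1 and Cldn4 in MK2 replicate 1.

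The ratio of Cldn4 to Cldn1 transcripts per length was 3.18 and 3.07 in the MK1 cultures and 0.891 and 1.72 in the MK2 cultures. The lines did not overlap in this ratio. A permutation test of 2 against 2 cultures cannot go below p = 0.333 (two-sided), so none is given. The ratio of Cldn1 to Cldn12 was 6.54 and 4.76 in MK1 and 2.18 and 2.52 in MK2.

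All 25 rows named Cldn and a number were summed to describe the repertoire as a whole. The sum was 1583 and 1232 TPM in the MK1 cultures and 262 and 457 TPM in the MK2 cultures, a 3.92-fold difference of the means (1408 ± 248 and 359 ± 137 TPM). Both MK1 cultures lay above both MK2 cultures. Cldn4 made up 57.8 ± 4.57% of the sum in MK1 and 34.8 ± 13.8% in MK2, and Cldn1 18.5 ± 1.02% and 27.0 ± 1.62%. Cldn6 accounted for 12.4 ± 2.58% in MK1 and had 0 counts in MK2. The share of Cldn12 was 3.33 ± 0.560% in MK1 and 11.6 ± 1.88% in MK2, although its own level did not pass the test. The row named Cldn25 made up 7.79 ± 2.46% in MK1 and 25.9 ± 10.4% in MK2, and with 33.3% it was the largest share in MK2 replicate 1.

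**Figure D2:**
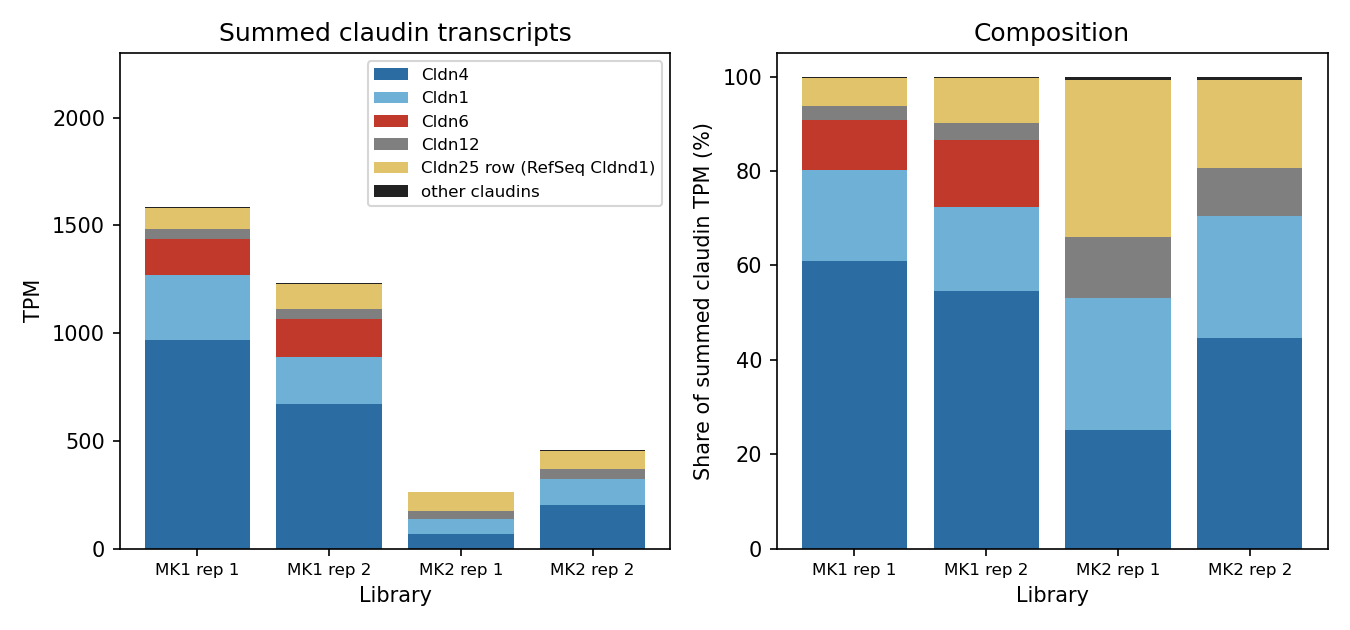
Summed TPM of all claudin rows (left) and each gene's share of that sum in percent (right) for the 4 libraries. The sum is 1583 and 1232 TPM in MK1 and 262 and 457 TPM in MK2, and Cldn6 is seen in the MK1 bars alone. The row named Cldn25 has the start and end of the RefSeq gene Cldnd1.

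Of the 16 claudin rows that are not members, 10 had 0 counts in every library. The row named Cldn25 was the one at 1 CPM or more, with 99.4 and 125 CPM in MK1 and 94.8 and 94.0 CPM in MK2 (log2 change -0.25, adjusted p = 0.155 in edgeR's quasi-likelihood test). RefSeq lists a gene with the same start and end on chromosome 16 (58727910 to 58734247) as Cldnd1, a claudin-domain protein, and without it the sum was 1487 and 1115 TPM in MK1 and 175 and 372 TPM in MK2. The other 5 rows, Cldn2, Cldn15, Cldn18, Cldn20 and Cldn22, had at most 10 counts in a library. Cldn5, the claudin of endothelial cells, was among the rows at 0.

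The 2 most abundant claudins also differed between cultures of 1 line. Between the MK1 cultures the absolute log2 difference was 0.442 for Cldn1 and 0.490 for Cldn4, larger than in 97.1% and 98.1% of 8907 genes with a mean of at least 10 CPM. Between the MK2 cultures it was 0.705 for Cldn1 and 1.66 for Cldn4, larger than in 96.8% and 99.7% of 8905 genes. The medians over these genes were 0.115 in MK1 and 0.147 in MK2. Cldn6, in contrast, differed by 0.0990 between the MK1 cultures, and Cldn12 by 0.0160 there and by 0.494 between the MK2 cultures. Cldn1, Cldn4, Cldn7, Cldn12 and Cldn23 were all higher in MK2 replicate 2 than in MK2 replicate 1.

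Some members are neighbours in the genome. Cldn6 and Cldn9 lie tail to tail on chromosome 17 with 137 bases between them, and Cldn9 had 2 counts in MK1 where Cldn6 had 3627 and 3430. Cldn4 and Cldn3 lie 39279 bases apart on chromosome 5, and Cldn3 had 0 counts beside 25130 and 15800 counts of Cldn4 in MK1. Transcripts were thus detected from 1 gene of each pair at 10 CPM or more.

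The nearest tested genes beside the claudins are given by position in the deposited table, and rows that were not tested can lie between. Beside Cldn6, the cytokine receptor gene Tnfrsf12a stood at 271 and 310 CPM in MK1 and 234 and 302 CPM in MK2, and Pkmyt1, a kinase that restrains CDK1, at 32.0 and 33.1 and at 36.3 and 34.9 CPM. Neither passed the test (adjusted p = 0.545 and 0.343 in edgeR's quasi-likelihood test), and both were present in both lines. Tnfrsf12a lies 1916 bases from Cldn6, and Pkmyt1 lies 43890 bases from it, beyond Cldn9. Why Cldn6 had no counts in MK2 was not tested. Nearest to Cldn1 were Leprel1 and Il1rap, 250862 and 209866 bases away. Neither passed (log2 changes 0.20 and 0.17, adjusted p = 0.494 and 0.468 in edgeR's quasi-likelihood test).

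Beside Cldn4, in contrast, Wbscr27 fell with it. Wbscr27 (chromosome 5, 134932373 to 134942637) lies on the opposite strand and its row ends 2487 bases before the Cldn4 row starts. It had 31.2 and 27.7 CPM in MK1 and 5.48 and 7.83 CPM in MK2 (log2 change -2.14, adjusted p = 2.76e-04 in edgeR's quasi-likelihood test). Counting was not set to use strand, and the exons of both rows do not overlap. On the other side of Cldn4, Abhd11, 62218 bases away and beyond Cldn3, did not pass (log2 change -0.06, adjusted p = 0.633 in edgeR's quasi-likelihood test).

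The other loci were mixed, and many of the nearest tested genes were far away. At lower and higher coordinates they lay 124764 and 22481 bases from Cldn12 and 145260 and 268269 bases from Cldn23. The distances were 16589 and 340 bases for Cldn7 and 827480 and 1223928 bases for Cldn8. Cdk14, below Cldn12, had 2.33 and 1.86 CPM in MK1, and no count of it was found in MK2 (at least 37.4-fold lower), while Gtpbp10 above it did not pass (adjusted p = 0.238). Mfhas1, below Cldn23, rose by 1.46 on the log2 scale (adjusted p = 2.36e-04), and D8Ertd82e above it did not pass (adjusted p = 0.117), except as higher when MK2 replicate 1 was left out (0.55, adjusted p = 0.00676). Beside Cldn7, Elp5 rose by 0.64 (adjusted p = 0.00315) and Slc2a4 by 1.79 (adjusted p = 0.0343). The Slc2a4 call was lost without MK1 replicate 1, MK1 replicate 2 or MK2 replicate 2 (adjusted p = 0.135, 0.175 and 0.217) and with the replicate block (adjusted p = 0.0644), and its log2 change was 0.70 without MK2 replicate 2 and 2.39 without MK2 replicate 1. Beside Cldn8, Bach1 fell by 0.32 (adjusted p = 0.0390), a call lost without MK1 replicate 1, MK1 replicate 2 or MK2 replicate 1 (adjusted p = 0.188, 0.117 and 0.122) and with the replicate block (adjusted p = 0.0756), and Tiam1 did not pass (adjusted p = 0.713).

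**Figure D3:**
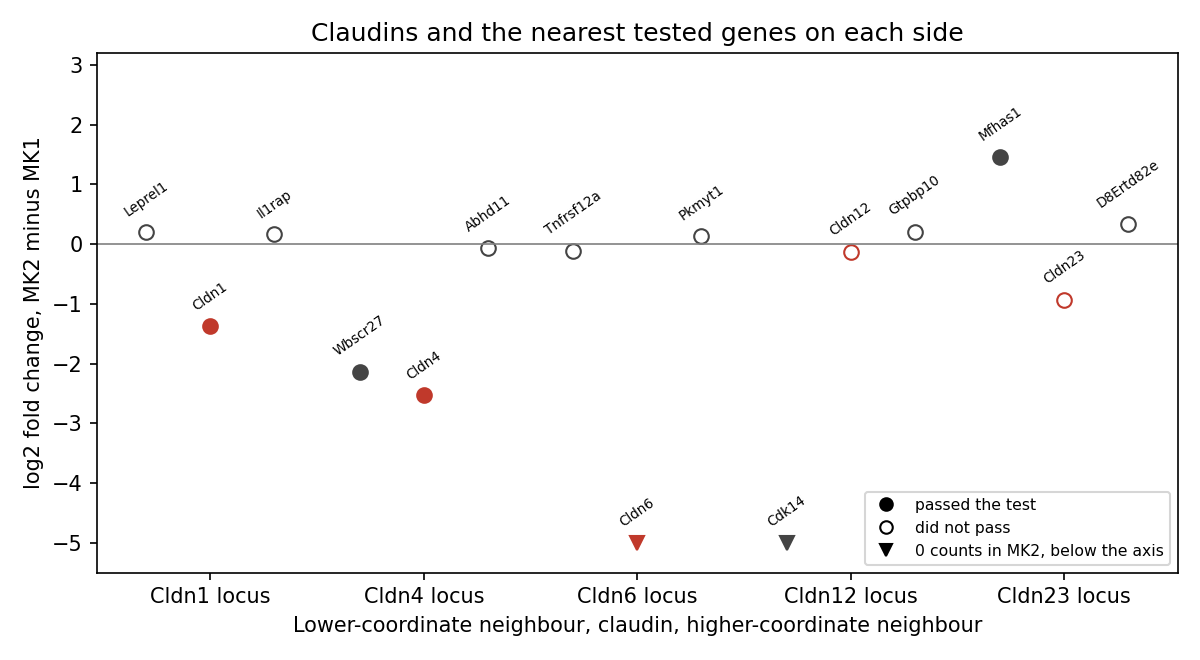
log2 fold change (MK2 minus MK1) of 5 claudins (red) and the nearest tested gene on each side (dark), in order of coordinate and not drawn to genomic distance. Filled symbols passed the test, open symbols did not, and triangles mark genes with 0 counts in MK2. Cldn6 lies at the bottom between a pair of open symbols near 0, and Cldn4 (-2.53) lies beside Wbscr27 (-2.14).

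Genes with the profile most like that of Cldn4 and Cldn6 were found by the Euclidean distance between centred log2 CPM over the 4 libraries, as a description. A prior count of 2 was added, which shrinks differences between low counts, so distances to genes with few counts depend on it. Nearest to Cldn4 were Rnf222 (distance 0.201), 5830418P13Rik (0.256) and Ccdc68 (0.275), all at 3.75 CPM or less in any library. Rnf222 stood at 3.19 and 2.01 CPM in MK1 and 0.119 and 0.600 CPM in MK2. Nearest to Cldn6 were Pxdn (0.632), a peroxidase of the extracellular matrix, Pmp22 (0.743), a membrane protein distantly related to the claudins, and the sialyltransferase gene St6gal1 (1.50). Pmp22 had 67.7 and 81.2 CPM in MK1 with no count in MK2, and Pxdn had 145 and 114 CPM in MK1 and 0.0397 and 0.0353 CPM in MK2. Like Cldn6, the genes Pxdn, Pmp22 and St6gal1 passed the low-count filter through MK1 alone.

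The partners of the claudins in the junction changed in both directions. Of 27 listed genes 25 were tested, 12 fell, 7 rose and 6 did not pass, beside 28.6% lower and 25.9% higher over all tested genes, and the median log2 change was -0.33. Without MK1 replicate 1 fewer partners were called, and fewer genes were called over the whole table too. Tjp3 and Ildr1 passed the filter through MK1 alone. Ocln, which encodes the strand protein occludin, went from 36.9 and 33.0 CPM in MK1 to 10.3 and 14.4 CPM in MK2, a log2 change of -1.50 (adjusted p = 8.22e-04 in edgeR's quasi-likelihood test). Its relative Marveld3 fell by 1.57, the polarity protein gene Crb3 by 1.74, the scaffold gene Magi3 by 1.82 and the polarity kinase gene Prkcz by 0.90. Cgn, which encodes the adaptor cingulin, fell by 1.00, a call lost without MK1 replicate 1 (adjusted p = 0.0818).

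Tjp1, chosen after its values were seen, stood at 526 and 502 CPM in MK1 and 286 and 287 CPM in MK2 and fell by 0.84 (adjusted p = 7.27e-04 in edgeR's quasi-likelihood test). The 7 partners that rose were Cxadr, Pard3, Pard6b, Inadl, Mpdz, Magi1 and Csda, named after their values were seen, and their log2 changes lay between 0.40 and 0.81. Several of them encode scaffolds with many PDZ domains. Csda, the table's name for Ybx3, which encodes the ZO-1-binding factor ZONAB, was the most abundant partner per length and rose by 0.49, a call lost without MK1 replicate 1 (adjusted p = 0.0830).

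**Figure D4:**
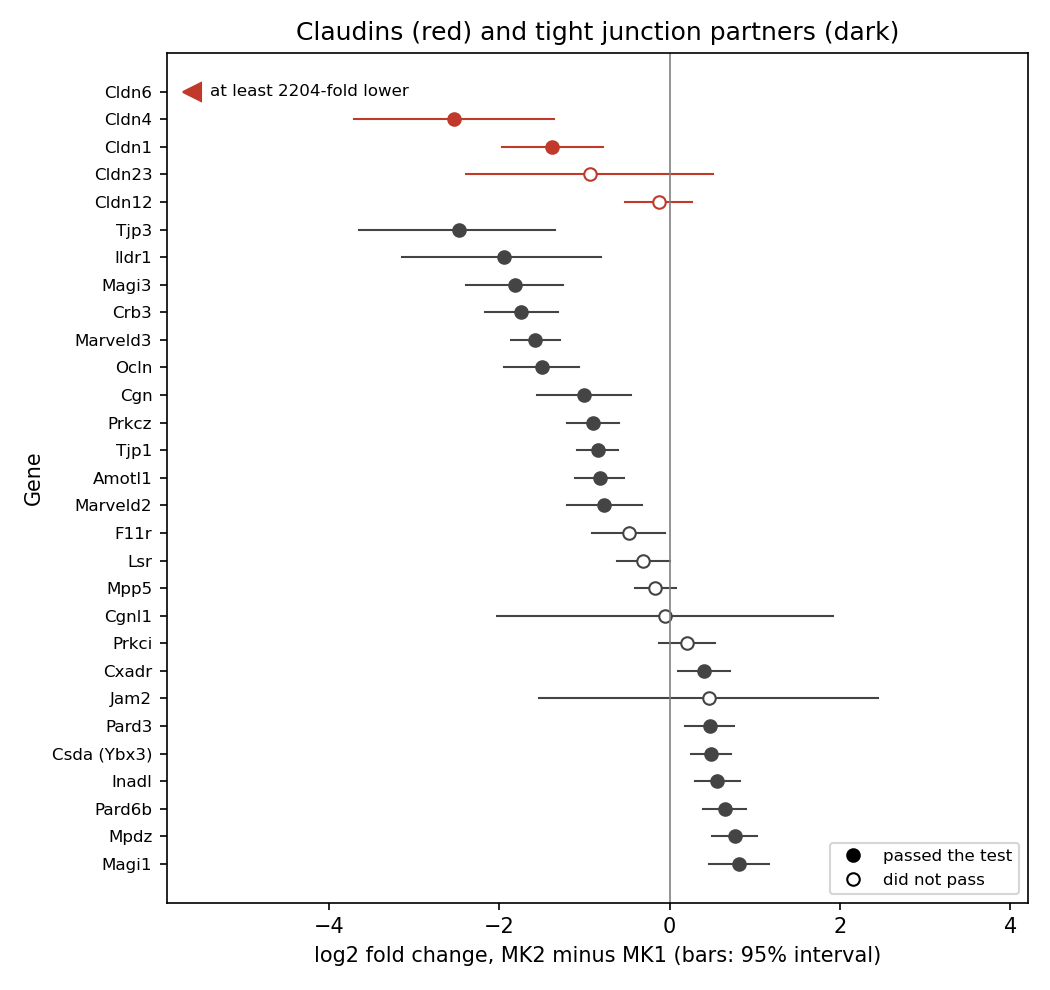
log2 fold change (MK2 minus MK1) of the tested claudins (red) and tight junction partners (dark, 1 tested partner not drawn), with 95% intervals that are not adjusted for the number of genes. Filled points passed the test at an adjusted p under 0.05, and Cldn6 is drawn as a bound (at least 2204-fold lower). Cldn1 and Cldn4 lie left of 0 with their intervals, and the partners spread to both sides.

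Among 14 listed genes of proteins that bind or modify claudins, 13 were tested, 7 fell, 1 rose and 5 did not pass, beside 28.6% lower and 25.9% higher over all tested genes. Without MK1 replicate 1 or 2 fewer of them were called lower, and fewer genes were called lower over the whole table too. The membrane-anchored proteases Prss8 and St14, known to act in the skin barrier, had log2 changes of -1.77 and -0.56, and their inhibitors Spint1 and Spint2 of -0.90 and -0.54. Prss8 stood at 41.5 and 41.4 CPM in MK1 and 8.94 and 15.4 CPM in MK2 (adjusted p = 0.00121 in edgeR's quasi-likelihood test). The calls of St14 and Spint1 were lost without MK1 replicate 1 (adjusted p = 0.0984 and 0.0739) and that of Spint2 without MK1 replicate 2 (adjusted p = 0.0710). The receptor kinase gene Epha2, whose product phosphorylates claudins, fell by 1.10, and Itch, a ubiquitin ligase gene, was the 1 that rose (by 0.67).

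The most abundant gene of this list per length, Cd9, a tetraspanin, did not pass (adjusted p = 0.547 in edgeR's quasi-likelihood test). Epcam, chosen after its values were seen because its product binds Cldn7, stood at 243 and 246 CPM in MK1 and 104 and 224 CPM in MK2. Epcam did not pass (adjusted p = 0.161). It passed as lower when MK2 replicate 2 was left out (-1.23, adjusted p = 1.05e-04) and when cultures were blocked with crossed numbers (-0.68, adjusted p = 0.00493). Epcam transcripts were thus present in both MK2 cultures, in which Cldn7 was below 1 CPM.

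Among 20 listed transcription factors known to act on claudin or epithelial junction genes, 16 were tested, 6 fell, 5 rose and 5 did not pass, beside the same 28.6% and 25.9%, with a median log2 change of -0.14. Without MK1 replicate 1 or 2 fewer of them were called higher, and fewer genes were called higher over the whole table too. Twist1, a repressor of epithelial genes, stood at 32.1 and 40.6 CPM in MK1 and 1.23 and 1.20 CPM in MK2 (log2 change -4.90, adjusted p = 1.46e-05 in edgeR's quasi-likelihood test). Elf3, an epithelial ETS factor, stood at 24.0 and 24.2 CPM in MK1 and 1.15 and 2.04 CPM in MK2 (log2 change -3.90, adjusted p = 7.63e-05). Its relative Ehf, chosen after its values were seen, had 7.20 and 2.83 CPM in MK1 and 0.0397 and 0.0353 CPM in MK2. Klf4 rose by 0.93. Gata3, below 10 CPM in each library and named after its values were seen, rose by 2.00 (adjusted p = 0.00113 in edgeR's quasi-likelihood test). It went from 2.57 and 1.71 CPM in MK1 to 7.43 and 9.73 CPM in MK2. Beyond 2-fold (glmTreat), 4 of the listed regulators were called lower and 1, Gata3, higher, beside 10.1% and 3.25% of all tested genes. The 4 were Twist1, Elf3, Ehf and Zeb1. Ehf and Zeb1 were tested through MK1 alone, so their direction was fixed.

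The calls of some smaller changes were lost when a single library was left out, which leaves 1 culture in a line. Without MK1 replicate 1 and without MK1 replicate 2, the log2 changes were -0.742 and -0.706 for Ovol2 and -0.359 and -0.605 for Klf5. They were 0.556 and 0.396 for Grhl1 and 0.382 and 0.418 for Snai2. Ovol2 fell by 0.72, a call lost without MK1 replicate 1 or 2 (adjusted p = 0.0699 and 0.0716), and Klf5 by 0.48, a call lost without MK1 replicate 1 (adjusted p = 0.130). Grhl1 rose by 0.48, a call lost without MK1 replicate 1, MK1 replicate 2 or MK2 replicate 2 (adjusted p = 0.0928, 0.172 and 0.0831) and with the replicate block (adjusted p = 0.0675). Snai2, which encodes the E2-box repressor Slug and was chosen after its values were seen, rose by 0.40, a call lost without MK1 replicate 1 or 2 (adjusted p = 0.103 and 0.0777). Zeb1, another E2-box repressor gene named after its values were seen, fell by 4.64, from 3.42 and 3.31 CPM in MK1 to 0.119 and 0.141 CPM in MK2 (adjusted p = 1.21e-04 in edgeR's quasi-likelihood test). Like Ehf, Zeb1 passed the low-count filter through MK1 alone, so both genes could only be found lower in MK2. Snai1 and Zeb2 had too few counts to be tested. Trp63, which encodes p63 and was the most abundant of these genes per length, did not pass (adjusted p = 0.0587). Grhl2, an activator of Cldn4 in other epithelia chosen after its values were seen, stood at 106 and 102 CPM in MK1 and 113 and 97.8 CPM in MK2 (adjusted p = 0.900).

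The labelled cell type was checked against its markers. All 10 keratinocyte markers passed the count filter, and their sum was 25380 and 25390 CPM in MK1 and 23560 and 20520 CPM in MK2. Most of that sum was Krt5 and Krt14, which did not pass edgeR's quasi-likelihood test (adjusted p = 0.925 and 0.681). Of the 10, 4 fell, among them Col17a1 by 1.06 and Lamb3 by 0.76, and 1 rose, Itga6 by 0.83. Over all tested genes, 28.6% were called lower and 25.9% higher. Of 5 markers of simple epithelia, Krt7, Krt8, Krt18 and Krt20 were lower in MK2 (4 of 4 tested, beside 28.6% of all tested genes). Krt19 was low in both lines and not tested (0.329 and 0.559 CPM in MK1, 0.318 and 0.247 CPM in MK2). The sum over the 5 genes was 3782 and 3922 CPM in MK1 and 35.7 and 29.5 CPM in MK2, with none at 0 in every library. Leukocyte markers (10 genes) summed to 32.6 and 32.3 CPM in MK1 and 0.318 and 0.176 CPM in MK2, where Cd79b and Ms4a1 were among the genes with no count. Lower in MK2 were 7 of 7 tested members, beside 28.6% of all tested genes. Each of these 7 passed the low-count filter through MK1 alone, so it could only be found lower in MK2. Cd3e and Emr1 had at most 1 count in any library. The part of these transcripts in the claudin differences was not tested, and in bulk RNA fewer cells of a type and less RNA per cell cannot be told apart. Of the endothelial markers Cdh5, Emcn and Cldn5 had 0 counts in all libraries, of the fibroblast markers Pdgfrb, Dcn and Lum, and of the melanocyte markers Dct. The sums of these 3 lists were 14.9 to 27.4, 1.03 to 3.88 and 3.54 to 6.05 CPM, and most of the endothelial sum was Kdr.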

How the data were processed

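Total RNA of 2 lines with 2 biological replicate cultures each was sequenced from Illumina TruSeq RNA libraries, per the labels' protocols. The authors deposited raw read counts per gene, not normalised. Per the file headers, featureCounts 1.4.6-p4 assigned reads in TopHat alignments to exons of the UCSC mm10 annotation by gene name, with no option for strand, pairs or multiple alignments. The submitters' processing notes name Bowtie2 2.2.6, TopHat2 2.0.13, DESeq2 1.10.1 and another featureCounts version, 1.5.0. Without strand, antisense reads cannot be told apart. Column names gave each column's sample, and 0 columns were left without one.

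The counts went into edgeR 4.0.16 (R 4.3.3) with filterByExpr (minimum count 10), TMM scaling and the quasi-likelihood F test, Benjamini-Hochberg adjusted over all 12479 tested genes at 0.05, two-sided, with glmTreat testing against a log2 change of 1. Standard errors and 95% intervals were derived from the F statistic. CPM used TMM-scaled library sizes and TPM the deposited gene lengths. Profile distances used log2 CPM with a prior count of 2. Count-ratio intervals are exact binomial and cover counting error only. The symbols Ybx3 and Adgre1 were matched through the synonyms Csda and Emr1. Promoter sequences came from RefSeq (GRCm38.p6).

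On simulated counts for 2 against 2 libraries and 12479 genes, 94% of 100 genes changed by 2-fold and 100% of 100 changed by 4-fold were recovered, with 0.0733% of 12279 unchanged genes called. Changes were given to well-counted genes only, and each gene had the spread usual for its level. Far fewer genes were changed than the 54.6% called in the data. These rates thus do not cover genes with few counts, or genes such as Cldn1 and Cldn4, whose cultures differed more than those of most genes. Replicates differed by more than counting noise (median chi-square per gene 2.88 for MK1, 4.28 for MK2), so every library was counted as its own replicate.

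The members and gene lists were chosen with earlier results of these data known. Named genes were all members, other claudin rows at 1 CPM or more, up to 6 called genes per list with a line mean of at least 10 CPM by size of change, the most abundant gene of each list, the nearest tested neighbours and the 3 nearest profiles of Cldn4 and Cldn6. Marker lists are given as sums. Some listed genes are counted in their lists and not reported by name here. Alternatives were upper quartile, library-size and DESeq2 size-factor scaling, the count filter, DESeq2 1.42.0, each library left out and the replicate block. Added after the data were seen were a block with crossed numbers, the claudin sum without Cldn25 and the counts of claudin-binding genes and regulators under each alternative.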

Additional observations from a re-analysis of the deposited data

How the results depend on the processing

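Cldn1, Cldn4 and Cldn6 kept their direction and call in each of 11 alternatives, with log2 changes of -1.77 to -1.06 for Cldn1 and -3.58 to -1.92 for Cldn4 and highest adjusted p of 0.0416, 0.0455 and 4.72e-04. Of 53 gene results, 28 kept direction and call in every alternative. Leaving out each library gave 3716 to 6847 genes called (main count 6810), 985 to 1717 called beyond 2-fold (1662), 4 to 5 members called (3), 3 to 5 called lower (3), 12 to 21 tight junction partners called (19) and 7 to 14 called lower (12). The cause was not tested, except that the member counts rose because Cldn7 passed the filter or because Cldn12 and Cldn23 passed the test. The sign of small changes that did not pass the test turned when single libraries were left out, giving ranges of -0.40 to 0.10 for Cldn12, -0.084 to 0.121 for Grhl2, -0.082 to 0.31 for Cd9, -0.15 to 0.49 for Leprel1 (past the threshold without MK2 replicate 2, adjusted p = 0.0498), -0.08 to 0.39 for Il1rap, -0.13 to 0.006 for Abhd11, -0.308 to 0.064 for Tnfrsf12a and -0.195 to 0.064 for Tiam1. With upper quartile scaling Grhl2 was at -0.039. With the replicate number as a block, 5908 genes and 3 members were called, and with crossed numbers 7454 genes and 4 members, Cldn23 being added (log2 change -1.08, adjusted p = 0.0297). Replicate differences of the lines correlated at -0.151 across 12479 genes. This gave no sign that shared numbers pair the cultures, but a correlation alone cannot exclude pairing. As shares of summed CPM, Cldn1 stood at 28.0% in MK1 and 34.2% in MK2, Cldn4 at 48.8% in MK1, Cldn6 at 8.73% in MK1 and Cldn12 at 6.34% and 18.4%, which follows from not dividing by length. Without Cldn25 the shares were 20.0% and 36.9% for Cldn1, 62.6% for Cldn4 in MK1 and 16.0% for Cldn12 in MK2, which follows from the smaller sum. The calls for the 3 nearest profiles of Cldn4 ended without MK1 replicate 1 (adjusted p = 0.0662 for Rnf222, 0.0908 for 5830418P13Rik and 0.0526 for Ccdc68). Depth limited Cldn3, Cldn8 and Cldn9, whose levels cannot be told from 0.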
